A study of Mus musculus with 4 samples.

Results

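The 10 genes described here encode the subunits of the transcription factor NF-kappaB and the proteins that restrain it. They are the subunit genes Nfkb1, Nfkb2, Rel, Rela and Relb, the IkappaB genes Nfkbia, Nfkbib and Nfkbie, the ubiquitin-editing enzyme gene Tnfaip3, and Tnip1, whose product binds that enzyme. They were chosen by gene symbol, among 18478 genes with a tested probe and a single symbol (19718 such genes were on the array), and each was represented by 1 probe. The cells were MA-10, a cell line of clonal origin from a mouse Leydig cell tumor, and the agent was cordycepin, which resembles adenosine. RNA of cells given 100 μmol/L of the drug over 3 hours (2 arrays, H003 and H004) was compared with RNA of vehicle control cells of the same line and time (2 arrays, H001 and H002) on Mouse OneArray one-colour arrays. The vehicle is PBS in the sample labels and DMSO in the methods, and a protocol field of the labels gives cordycepin in mg/mL where the other sources give 100 μmol/L. The labels call the arrays duplicates and leave unsaid whether each had a culture of its own, so the spread behind each p-value is that of these arrays and may be only technical.

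NF-kappaB works as a dimer of Rel-family subunits. IkappaB proteins hold the dimer in the cytoplasm until the IKK kinase complex marks them for degradation, and the freed dimer then enters the nucleus and binds kappaB sites in DNA. Several of the genes it switches on, among them Nfkbia and Tnfaip3, encode its own inhibitors, which is the best known negative feedback of the pathway.

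The array detected between 12193 and 13415 of its 26423 probes (detection p under 0.05) on each array. Of 6 tested Leydig cell markers, 5 were detected on all 4 arrays, and the normalized intensity of Hsd3b1, a steroidogenic enzyme gene, was 14382 and 10784 in the control arrays and 11518 and 10463 in the cordycepin arrays. Nr5a1, a transcription factor of steroidogenic cells, was lower (7745 and 4964 against 3094 and 2578, adjusted p = 0.039). Star, which brings cholesterol into mitochondria, had a log2 ratio of -1.08 that did not pass the test (adjusted p = 0.054). The Leydig markers Cyp17a1 and Lhcgr were dim, at 66.4 and 31.1 and at 30.9 and 25.7 in the control arrays. Of 6 macrophage markers, 1 was detected on all arrays, and the summed intensity of the list was 244 and 183 in control against 214 and 190 after cordycepin, with Emr1 and Mrc1 undetected throughout and the other 4 detected on both arrays of a group. For lymphocyte markers, 2 of 5 were detected on all arrays, with summed intensities of 150 and 102 against 124 and 134. For endothelial markers 2 of 5 were, and for Sertoli and germ cell markers 1 of 4 and 1 of 5. The Sertoli marker Sox9 was lower, at 98.4 and 69.2 in control and undetected after cordycepin (at least 3.65-fold, adjusted p = 2.2e-08). Dhh, the Sertoli marker detected on all arrays, read 717 and 536 against 528 and 497 and was not called. Fshr and Amh were undetected. The endothelial marker Cdh5 read 615 and 430 against 398 and 325 and was not called. The part of other cells in the values below was not tested. The deposited scaling set the duplicates of the control group apart. As a log2 value their median gap was 0.503, compared with 0.136 before scaling, and the cordycepin arrays lay 0.032 apart.

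Promoter stretches of inhibitor and subunit genes are shown first, because kappaB sites are the sequence basis of the feedback described above. They include Nfkb2 and Tnfaip3, which were not called, and Nfkbie, which was not detected. A part of these sites in the changes was not tested. RefSeq windows (GRCm38.p6) of 300 bases, from 250 before to 50 after an annotated transcript start, were given for 8 of the 10 genes, and Nfkb1 and Relb were not matched. The windows, 11 in all because Nfkb2 and Tnfaip3 have several starts, were searched on both strands for the kappaB consensus. In the following lines, written 5′ to 3′ on the strand of the gene, capitals mark the match. The first line holds the whole stretch of 250 bases before the start of Nfkbia, at chr12:55492648-55492897 on the minus strand.
Nfkbia: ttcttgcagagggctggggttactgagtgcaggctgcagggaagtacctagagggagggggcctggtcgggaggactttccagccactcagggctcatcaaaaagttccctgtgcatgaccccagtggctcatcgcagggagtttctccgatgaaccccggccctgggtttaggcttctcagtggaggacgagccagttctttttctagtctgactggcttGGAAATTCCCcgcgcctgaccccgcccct
Tnip1: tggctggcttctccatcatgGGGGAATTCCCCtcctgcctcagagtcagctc
Rel: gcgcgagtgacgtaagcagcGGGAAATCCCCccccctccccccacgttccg
Tnfaip3, farther match: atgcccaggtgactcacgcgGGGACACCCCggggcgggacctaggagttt
Tnfaip3, nearer match: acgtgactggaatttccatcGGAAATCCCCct
Nfkbie: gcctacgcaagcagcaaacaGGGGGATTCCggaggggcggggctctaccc
Nfkb2, first start: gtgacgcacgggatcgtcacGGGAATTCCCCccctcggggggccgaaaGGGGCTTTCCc

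The Nfkbia match lay 29 to 20 bases before the start and read as the consensus on the opposite strand. The Tnip1 match, at chr11:54962967-54963018 on the minus strand with its flanks, was the longest stretch at 12 bases, began 58 bases before the start and read as the consensus on both strands. The Rel match (chr11:23771031-23771081, minus strand) began 92 bases before the start and also read on both strands. Tnfaip3 carried matches beginning 125 and 12 bases before its start (chr10:19015506-19015555 and chr10:19015411-19015442, minus strand). Nfkbie (chr17:45555574-45555623, plus strand) carried 1 match and the first start of Nfkb2 (chr19:46304678-46304736, plus strand) carried 2. In all, 6 of the 8 genes had a match in a window, against 5.14% of the 27025 genes in the table, and 8 of their 11 windows had one, against 4.51% of 32851 windows. No match to these letters was found in the windows of Rela and Nfkbib. The letters TATAAA, searched on both strands, stood in 2 windows, against 13.6% of all windows. In Nfkbia they lay 20 bases after the start and read on the opposite strand, and at the first start of Tnfaip3 they lay 225 bases before it. The GC content of the windows ran from 47.0% to 75.0%, with a median of 52.7% over all windows. A match is a description of the letters, and binding was not measured here.

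**Figure D1:**
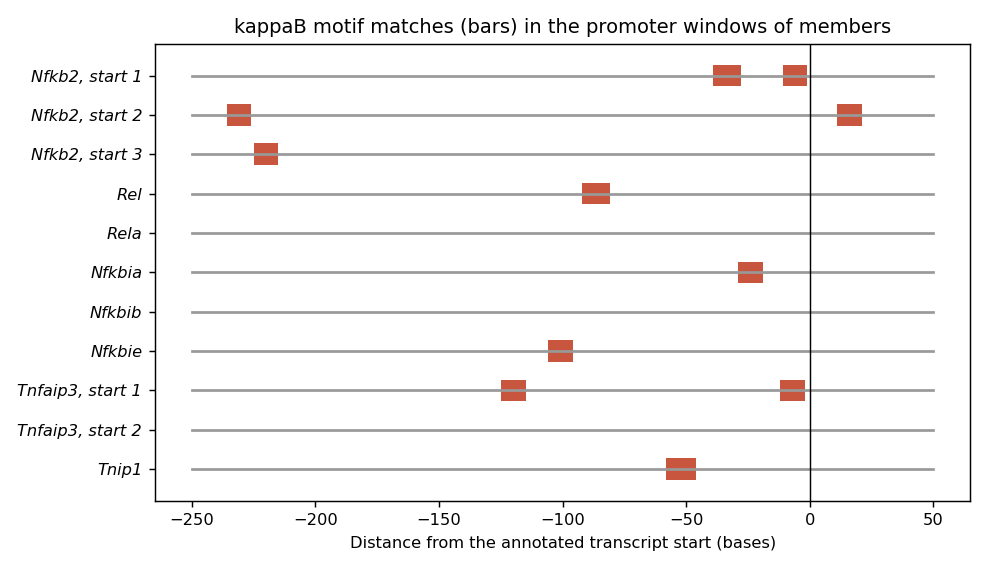
Position of kappaB consensus matches (bars) in the 11 promoter windows of 8 genes. The x axis is the distance in bases from the annotated transcript start, with bases before the start to the left. Matches stand in windows of Nfkb2, Rel, Nfkbia, Nfkbie, Tnfaip3 and Tnip1, and the windows of Rela, Nfkbib and the second start of Tnfaip3 hold none.

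Of the 10 genes, 3 were lower after cordycepin, namely Rel, Nfkbia and Tnip1, and 0 were higher. At an unadjusted p under 0.05 the 4 genes Rel, Nfkbia, Tnfaip3 and Tnip1 were lower, and so were 20.1% of all genes. A gene was called lower or higher where the log2 ratio of cordycepin over control passed limma's test at an adjusted p under 0.05 over all 24319 probes tested. Over all genes tested, 14.7% were lower and 0.942% were higher by the same rule, and among the 7857 genes with a mean normalized intensity of 100 or more over the 4 arrays, a level set after the values were seen, 22.9% were lower and 0.242% higher. Of the 10 members 6 reached that level, and 2 of these, Nfkbia and Tnip1, were lower. With each array's median set to 0 on the log2 scale the split over all genes became 19.8% lower and 19.9% higher, and with quantile normalization of the raw intensities it became 17.2% lower and 22.3% higher. Under the latter Nfkb1 and Nfkb2 were called higher, and Rel, Nfkbia, Tnfaip3 and Tnip1 lower. The count of 3 lower also changed when single arrays were left out. It was 6 without H002, with Rela, Relb and Tnfaip3 added, 2 without H003 (Rel and Nfkbia) and 1 without H004 (Rel). The share of all genes that were lower moved with it, to 29.8%, 7.84% and 7.31%. With 50 added to every intensity 0 of the 10 genes were called, and 0 of all genes. The spread was pooled over all probes into a standard error of 0.407, so that a log2 ratio had to reach 1.10 in size to be called. The median standard error was 0.61 without H003 or H004 and 0.17 without H001 or H002. Without H003 and without H004, the log2 ratio was -1.93 and -1.61 for Nfkbia, and -1.56 and -1.50 for Tnip1. For Rel it was -2.49 and -2.47. The median log2 ratio was -0.64 over the 10 genes, against -0.13 over all genes and -0.36 over the genes at or above the intensity of 100. In bulk RNA, a fall in the number of cells that make a transcript and a fall in the transcript per cell cannot be told apart.

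Among the subunits, Rela encodes the main activating subunit of the canonical pathway. Its normalized intensity was 1716 and 1240 in the control arrays and 969 and 983 in the cordycepin arrays. Both cordycepin arrays lay below both control arrays, and the groups did not overlap. The log2 ratio of -0.58 (95% confidence interval -1.38 to 0.22) did not pass the test (adjusted p = 0.53). Relb encodes the activating subunit of the noncanonical pathway. It stood at 766 and 590 in control and at 420 and 410 after cordycepin, again without overlap. Its log2 ratio was -0.70 (-1.49 to 0.10, adjusted p = 0.35). It was called lower with arrays brought to a common median (-0.36, adjusted p = 0.048) or centred on ribosomal protein genes (-0.96, 0.0046), and was at -0.02 with quantile normalization (0.91). Rela was called under ribosomal centring as well (-0.84, adjusted p = 0.0048) and was at -0.17 with quantile normalization (0.12).

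Nfkb1 and Nfkb2 encode precursors that are cut to the DNA-binding subunits without an activation domain, and the uncut precursors act like IkappaB proteins. The intensity of Nfkb1 was 203 and 142 in control and 216 and 174 after cordycepin. It was the only detected gene of the 10 with a ratio above 0 on the deposited scale, and its groups overlapped (log2 ratio 0.19, -0.61 to 0.99, adjusted p = 0.97). For Nfkb2 the values were 401 and 283 against 304 and 266. These groups overlapped as well, with a log2 ratio of -0.24 (-1.04 to 0.56, adjusted p = 0.94). Its direction turned with the scaling, to 0.10 with arrays brought to a common median and to 0.57 with quantile normalization of the raw intensities, where it was called higher (adjusted p = 0.017), and it was called lower when arrays were centred on ribosomal protein genes (-0.50, 0.026). Nfkb1 moved to 0.53 with a common median (adjusted p = 0.053), was called higher at 1.01 with quantile normalization (0.015), and turned to -0.07 under ribosomal centring (0.70).

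Rel, the subunit gene best known from lymphocytes, was the only subunit called. The 2 control arrays gave 36.6 and 25.7, and the cordycepin arrays gave 5.56 and 5.45. Both control values passed detection, with detection p-values of 0.019 and 0.026, and neither cordycepin value did (0.36 and 0.33). With each cordycepin value lifted to the lowest intensity that passed detection on its array, Rel was at least 1.36-fold lower (adjusted p = 3.4e-08 on the values as measured, log2 ratio -2.48). With all undetected values raised to that floor before the fit the ratio was -0.44 and the adjusted p 0.54, and with 50 added to every intensity it was -0.55 and 0.082. In raw units the change was from 32 and 29 to 5 and 6.

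The IkappaB gene Nfkbia, whose product is the principal cytoplasmic inhibitor of Rela dimers, fell and was detected on all 4 arrays. Its intensity was 2501 and 1831 in the control arrays and 703 and 562 in the cordycepin arrays. Every cordycepin value was below every control value. The mean was 2166 ± 474 (SD, n = 2) in control and 633 ± 100 (SD, n = 2) after cordycepin, and the fitted change was 3.40-fold lower (log2 ratio -1.77, -2.57 to -0.97, adjusted p = 0.00021). The call was lost without the array H004, where the log2 ratio was -1.61 with an adjusted p of 0.10. Of all genes, 7.66% had a lower ratio than Nfkbia.

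Nfkbib and Nfkbie, the other IkappaB genes of the set, were not detected. Nfkbib read 24.0 and 16.9 in control and 17.8 and 13.6 after cordycepin, with detection p from 0.051 to 0.21. Nfkbie read 8.01 and 5.33 against 5.56 and 5.45, with detection p from 0.27 to 0.36. Since neither group passed detection, no fold is given for them, and these probes cannot show whether the transcripts changed.

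Tnip1, which recruits the enzyme encoded by Tnfaip3 to ubiquitin chains on the IKK complex, fell with Nfkbia. Its probe read 2862 and 1910 in the control arrays and 828 and 792 in the cordycepin arrays. The groups did not overlap, and the cordycepin duplicates lay close together. The mean went from 2386 ± 673 to 810 ± 25.4 (SD, n = 2 each), which was 2.89-fold lower (log2 ratio -1.53, -2.33 to -0.73, adjusted p = 0.0019). Leaving out either cordycepin array ended the call, with adjusted p of 0.12 without H003 and 0.15 without H004, at log2 ratios of -1.56 and -1.50 and a standard error that rose to 0.61. Tnfaip3 itself, a target and inhibitor of the pathway, was dim, at 42.4 and 29.3 in control and 20.0 and 19.1 after cordycepin. It was detected in both control arrays, with detection p-values of 0.013 and 0.019, and in neither cordycepin array (0.073 and 0.057). The bound was at least 1.56-fold lower, with a log2 ratio of -0.85 (-1.65 to -0.05) that did not pass the test (adjusted p = 0.19, unadjusted p = 0.037). With undetected values floored it was -0.64 (adjusted p = 0.15), and with 50 added to every intensity it was -0.30 (0.25). It was called in 6 of 15 alternatives, among them the raw intensities (0.046), each of the other scalings (0.0019 to 0.024) and the fit without H002 (0.014). Without H001, H003 or H004 the adjusted p was 0.072, 0.75 or 0.81. It also passed over detected probes alone (0.042), a filter it met only through its control arrays.

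**Figure D2:**
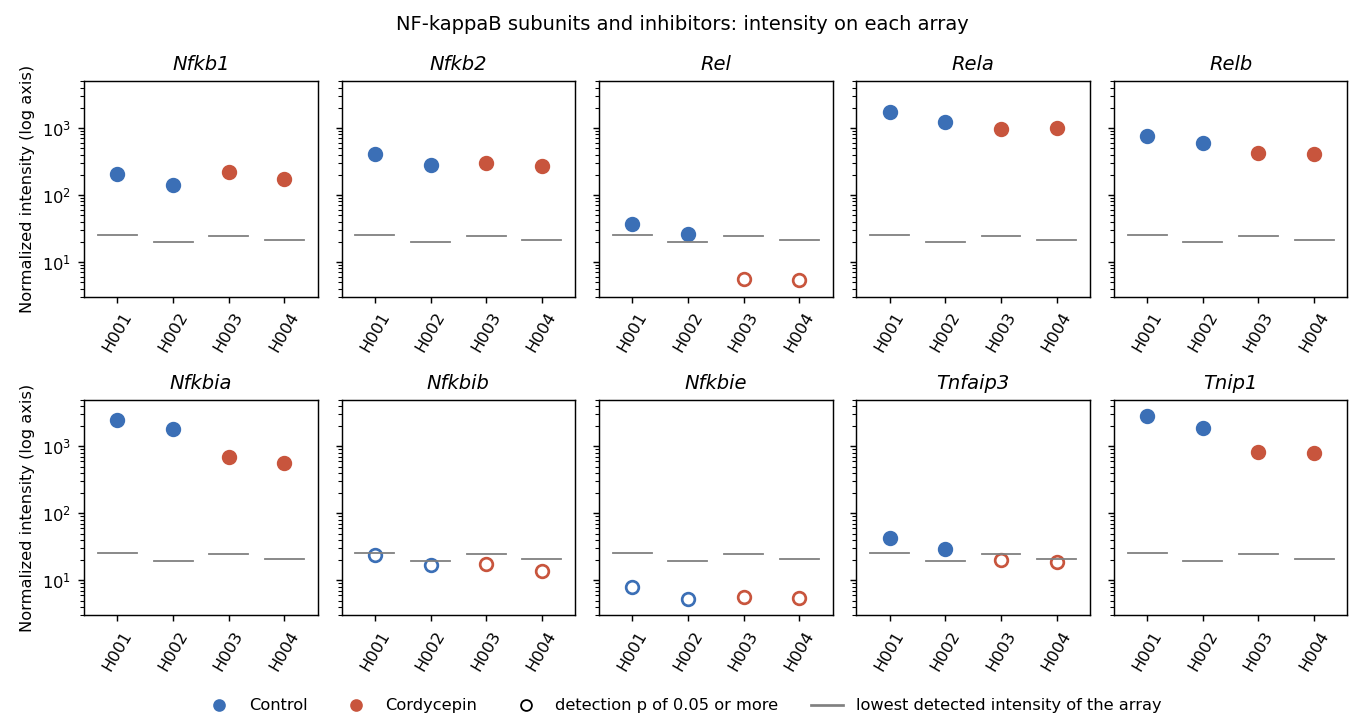
Normalized intensity (log axis) of each of the 10 genes on each of the 4 arrays. Points are single arrays coloured by group, open points have a detection p of 0.05 or more, and grey lines mark the lowest detected intensity of the array. Nfkbia falls from 2501 and 1831 to 703 and 562 and Tnip1 from 2862 and 1910 to 828 and 792, whereas the points of Nfkb1 and Nfkb2 overlap between groups.

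In 6 of the 10 genes both cordycepin arrays lay below both control arrays, namely Rel, Rela, Relb, Nfkbia, Tnfaip3 and Tnip1. Over all genes 35.5% did so, and 51.3% of the genes with a mean intensity of 100 or more, where 4 of 6 members did. The opposite arrangement was found in 0 of the 10 genes and in 8.64% of all genes. With 2 arrays a group, the smallest two-sided exact permutation p that a single gene can reach is 0.333. In every one of the 10 genes the first control array read higher than the second, by 1.30 to 1.50 times in the normalized values and by 1.01 to 1.17 times in the raw values. This offset was array-wide. The deposited constants, 1.1447 for H001 and 0.8878 for H002, act on every probe. Over probes above 0 on all arrays the median log2 gap was 0.503 after scaling and 0.136 before.

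**Figure D3:**
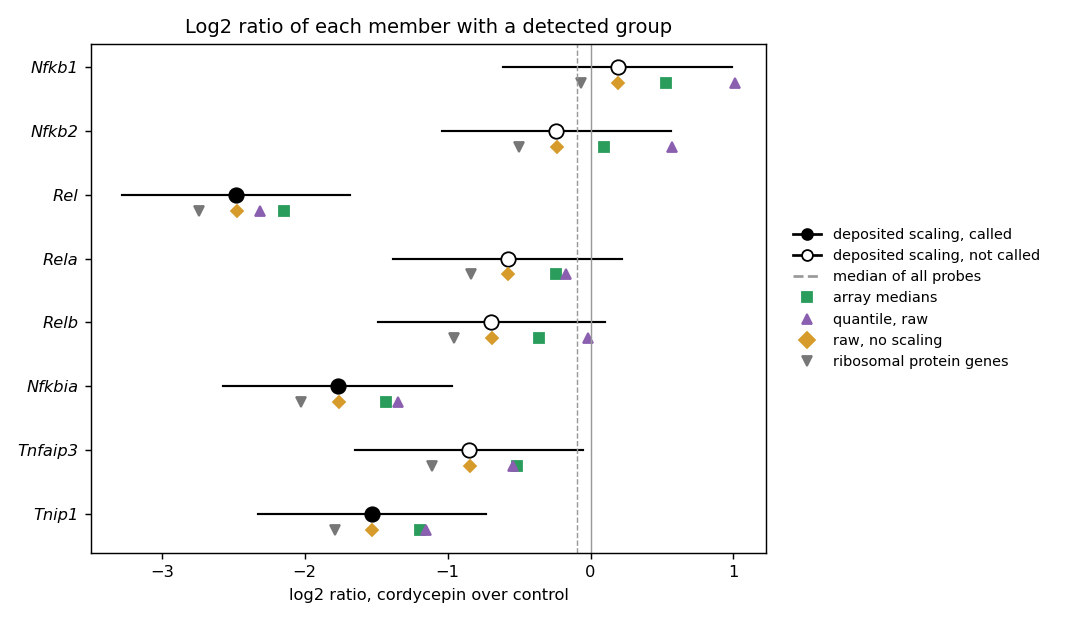
Log2 ratio of cordycepin over control for the 8 genes detected in at least 1 group. Black points and bars are the deposited scaling with the 95% confidence interval, filled where called, and the other symbols are the same ratio under other scalings. Nfkbia runs from -2.03 to -1.35 and Tnip1 from -1.79 to -1.15 over the scalings, while Nfkb1 and Nfkb2 lie on both sides of 0.

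A comparison of genes on the same array does not move when that array is multiplied by a constant, so it was added after the values were seen. For each pair of the 6 genes detected on all arrays, the log2 of one intensity minus that of the other was taken on each array, and the change of this difference from control to cordycepin was read. The difference itself compares different probes and has no meaning as a level. Relative to Nfkb1, Nfkbia went from 3.63 and 3.69 in the control arrays to 1.71 and 1.69 in the cordycepin arrays. That is a 3.88-fold lower ratio, and the duplicates lay at most 0.062 apart. Tnip1 went from 3.82 and 3.75 to 1.94 and 2.19 relative to Nfkb1, a 3.29-fold lower ratio. Nfkb1 is the member with the highest ratio among those detected, so these values restate the ratios given above on a scale that the array constants cannot move.

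Against the other subunits the changes were smaller. Nfkbia relative to Rela changed from 0.54 and 0.56 to -0.46 and -0.81 on the log2 scale, a 2.28-fold lower ratio, and relative to Relb it fell by 1.07. Tnip1 fell by 0.95 relative to Rela, and the largest gap between duplicates was 0.12. Among the subunits, Rela fell by 0.77 and Relb by 0.89 relative to Nfkb1, with duplicates at most 0.33 and 0.28 apart. Between Nfkbia and Tnip1 the change was -0.24, within a gap of 0.26 between duplicates. Over the 15 pairs that gap ran from 0.062 to 0.345. Each pair with separated groups has an exact two-sided permutation p of 0.333, the smallest this design allows. The pairs share genes and are not independent.

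**Figure D4:**
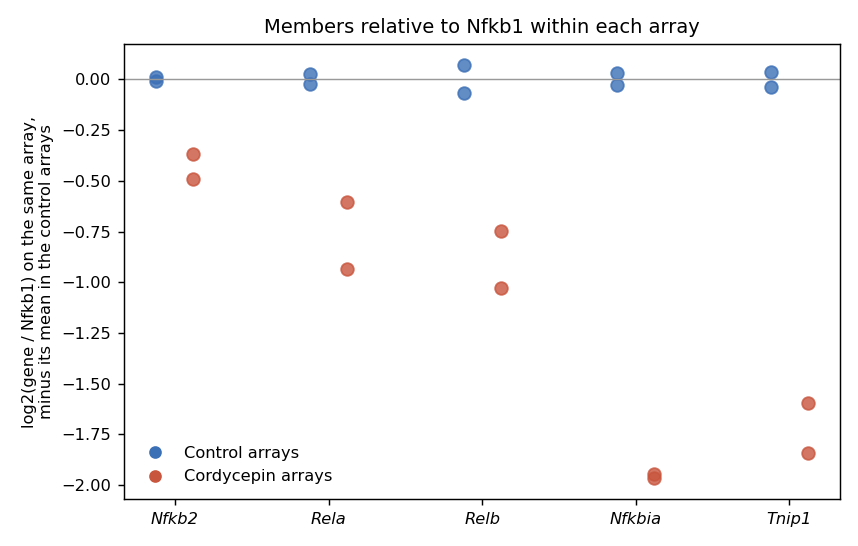
Log2 of each gene over Nfkb1 on the same array, minus the mean of that value in the control arrays. Points are single arrays coloured by group, and the y axis is in log2 units. The cordycepin points lie lowest for Nfkbia (mean -1.96) and Tnip1 (-1.72), between -0.89 and -0.77 for Relb and Rela, and at -0.43 for Nfkb2.

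The rest of the pathway was described through lists of genes by role. Of 124 tested genes in these lists, 32 were lower (25.8%) and 0 higher, beside the 14.7% over all genes. Of the 65 with a mean intensity of 100 or more, 24 were lower, beside the 22.9% over all genes at that level. The median log2 ratio was -0.47 over the 124 genes. The count of 0 higher depended on the scaling and was 12 with arrays centred on their medians and 18 with quantile normalization. The count of 32 lower was 65 without H002, 18 without H003 and 17 without H004. For each list, the most and the least lowered of the called and detected genes are named, except in the coregulator list, where 1 is named. Of these, Pias1, Tbk1, Bcl10, Tnfrsf12a and Icam1 lost the call without H003 (adjusted p from 0.051 to 0.33) and without H004 (0.086 to 0.43), and Nfkbiz lost it without H004 (0.080).

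Of the ligands, 3 of 11 were detected, and Tnf, the best known ligand of the canonical pathway, was undetected on all 4 arrays. None of the 11 was called. Among receptors 3 of 13 were lower. Tnfrsf1b, a TNF receptor, was at 996 and 686 in control and at 43.3 and 40.0 after cordycepin. That was a 19.9-fold fall (log2 ratio -4.31, adjusted p = 1.4e-23), and 0.308% of all genes had a lower ratio. Averaged over its 2 probes the log2 ratio was -3.54. Tnfrsf12a, the receptor of the cytokine TWEAK, was at 15558 and 10456 against 5718 and 4793 (log2 ratio -1.28, adjusted p = 0.014).

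Adaptors and ubiquitin ligases, which carry the signal from receptor to kinase, had 7 of 22 lower. Of the 7, Traf2 was near the detection limit and not detected on both arrays of either group (25.2 and 14.2 against 10.0 and 7.27). Tirap, an adaptor of Toll-like receptors, changed from 413 and 184 to 43.3 and 33.6 (log2 ratio -2.85, adjusted p = 1.2e-10). Its control duplicates lay far apart. Both were above the cordycepin values, as in 51.3% of the genes with a mean intensity of 100 or more. Averaged over the 2 probes of Tirap the log2 ratio was -2.07. Bcl10, the scaffold of the complex used by antigen receptors, changed from 1550 and 1138 to 510 and 524 (log2 ratio -1.36, adjusted p = 0.0078).

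The IKK complex and its upstream kinases had the highest share of lower genes, 8 of 17. Over all genes 14.7% were lower, and over detected genes with a promoter window 22.6% were. All 17 were detected, with a median log2 ratio of -0.92, beside -0.305 over all detected genes. Of the 8, Map3k8 and Ripk2 met that filter only through their control arrays. After cordycepin their detection p-values were 0.36 and 0.28 for Map3k8 and 0.11 and 0.47 for Ripk2. Map3k14, the kinase that starts the noncanonical pathway, went from 303 and 219 to 31.1 and 29.1, an 8.57-fold fall (log2 ratio -3.10, adjusted p = 1.8e-12). Tbk1, an IKK-related kinase, went from 4132 and 3044 to 1634 and 1414 (log2 ratio -1.22, adjusted p = 0.022). The core complex, looked up after the values were seen, was not called. Its kinases Chuk and Ikbkb had log2 ratios of -0.65 (788 and 542 against 437 and 398, adjusted p = 0.42) and -0.40 (2485 and 1734 against 1606 and 1551, adjusted p = 0.77), and its scaffold Ikbkg had -0.25 (56.1 and 32.8 against 36.7 and 35.5, adjusted p = 0.93).

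Other inhibitors and IkappaB relatives were lower in 4 of 19. Nfkbiz, a nuclear IkappaB protein that acts on selected target genes, went from 255 and 177 to 66.7 and 61.8 (log2 ratio -1.73, adjusted p = 0.00031). Pias1, a SUMO ligase that limits DNA binding by Rela, went from 539 and 377 to 181 and 191 (log2 ratio -1.28, adjusted p = 0.014). Coregulators were lower in 4 of 13. Sirt1, a deacetylase of Rela, was at 143 and 97.7 in control and undetected after cordycepin (8.89 and 7.27), at least 5.23-fold lower (adjusted p = 3.7e-19).

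Of 29 target genes tested, 6 were lower, and the median log2 ratio was -0.04. In all, 16 of the 29 were detected, that is, throughout the control arrays, the cordycepin arrays or all 4. The 6 lower genes were among these 16 (37.5%), whose median log2 ratio was -0.585. Of all genes with a promoter window that met the same filter, 22.6% were lower. Over all genes that met it, the median was -0.305. Ier3, an early-response gene that limits cell death, went from 580 and 393 to 32.2 and 44.5, a 12.6-fold fall (log2 ratio -3.66, adjusted p = 4.2e-17). Icam1, an adhesion molecule gene, went from 333 and 250 to 92.2 and 84.5 (log2 ratio -1.71, adjusted p = 0.00036). The genes called lower thus included receptors, kinases and targets together with the inhibitors Nfkbia and Tnip1. The share lower was 23.1% for receptors, 21.1% for other inhibitors and 20.7% for targets. For adaptors it was 31.8% and for coregulators 30.8%. Over all genes it was 14.7%, and 22.9% over those with a mean intensity of 100 or more.

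**Figure D5:**
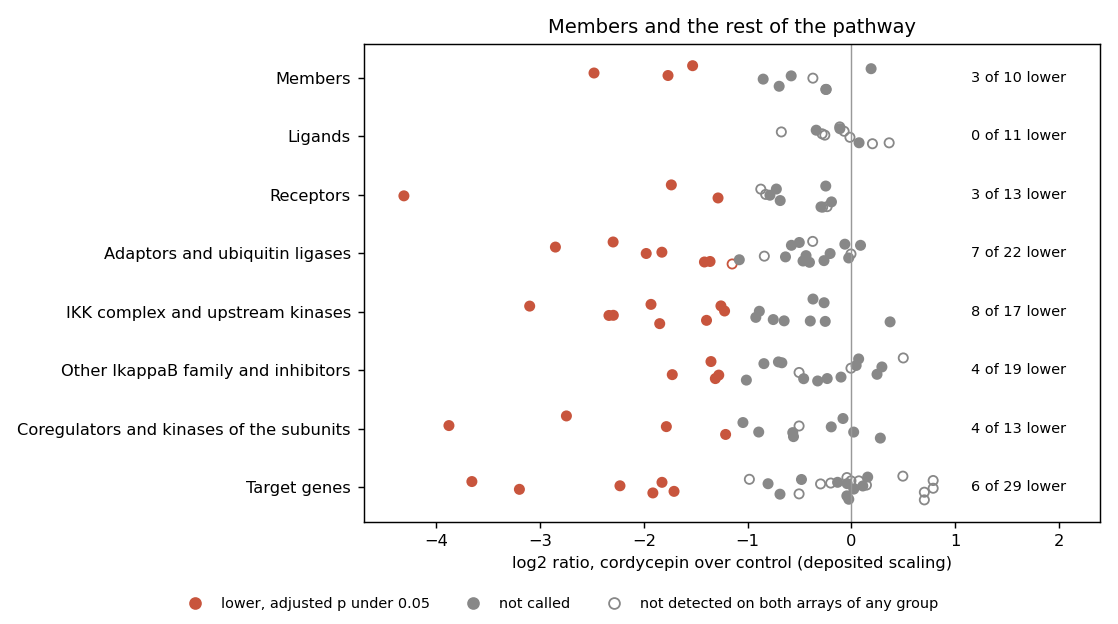
Log2 ratio of cordycepin over control (deposited scaling, x axis) for the 10 genes described here and for 124 other pathway genes by role. Each point is 1 gene, red where lower at an adjusted p under 0.05, and open points were not detected on both arrays of any group. The IKK list shows 8 of 17 genes lower, the ligand list 0 of 11, and the longest fall is Tnfrsf1b at -4.31.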

How the data were processed

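Total RNA from MA-10 cells was measured on 4 arrays, 2 per group, at 26423 probes each. The raw intensity was deposited by the authors as whole numbers, and the normalized intensity was deposited by the authors as the raw value times 1 constant per array. The normalization method is not given in the sources used here. A detection p-value for each probe and array, and a score (flag) per spot whose meaning is not stated, were also deposited by the authors. Their own log2 ratio and p-value per probe, which the authors deposited, were not used. The labels describe reverse transcription from oligo-dT primers. Their dye field names Cy5 and their protocol field a radioactive label.

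Log2 normalized intensity was fitted with limma 3.58.1 in R 4.3.3 (lmFit and eBayes), with Benjamini-Hochberg adjustment over 24319 probes above 0 on all arrays. The other 2104 probes were left out. Of the probes, 22553 carried 1 symbol, 237 several and 3633 none. Genes were taken by their brightest probe. The smallest log2 size called was 1.10. The fit was tested on simulated data. Where a group was undetected, each value was lifted to the lowest intensity that passed detection on that array, and the fold is a bound. Coordinates and promoters came from RefSeq tables (GRCm38.p6), and proteins were not used here. Named genes were the 10 members, and in each pathway list the called detected genes with the lowest and highest log2 ratio, of which 1 is not reported here. The members and the lists were chosen with earlier results of these data known. The number of arrays and the scaling limit the precision, since the median standard error was 0.407 with the deposited scaling and 0.104 with quantile normalization. Alternatives were other scalings, filters, variance models, the mean of a gene's probes, the methods' t-test and leaving out each array.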

Additional observations from a re-analysis of the deposited data

How the results depend on the processing

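The deposited scaling gave 3 members lower and 0 higher, 2710 genes lower and 174 higher, and 32 other pathway genes lower and 0 higher. With arrays centred on their medians, which moved the median ratio of all probes from -0.097 to 0.242, these were 5 and 0, 3661 and 3681, 43 and 12. Quantile normalization of the raw intensities (median 0.135) gave 4 and 2, 3185 and 4112, 37 and 18. Centring on 48 ribosomal protein probes (median -0.356) gave 9 and 0, 7620 and 246, 78 and 1. The 9 and the lower counts there are changes relative to that shift. Raw intensities without scaling gave 4 members and 3314 genes lower, and detected probes alone 4 members lower with 89 genes higher. With values floored and no filter, 2 members were lower and 87 genes higher. Adding 50 to each intensity left 0 calls in every count, and so did the methods' t-test after adjustment. At its unadjusted threshold it gave 3 members lower and 2555 genes lower. The variance trend gave 3 members lower and 120 genes higher. Leaving out each array gave 1 to 6 members lower, 1351 to 5505 genes lower, 47 to 1399 higher, and 17 to 65 other pathway genes lower and 0 to 7 higher. The 6 and the 5505 came without H002, the 1 and the 1351 without H004, and the 1399 without H001. Over these fits Nfkb1 ran from -0.067 (without H002) to 0.446 and Nfkb2 from -0.493 to 0.008 (without H001). Centring turned Nfkb2 to 0.10 (adjusted p = 0.51), quantile normalization to 0.57 (0.017), and ribosomal centring turned Nfkb1 to -0.07. The causes were not tested. Over the named genes, 5 of their alternatives reversed, 49 lost the call, 13 gained one and 233 kept both. No paired analysis was possible because the labels number the arrays H001 to H004 and the groups share no replicate number. The 4 arrays, and probes near the detection limit such as Rel and Tnfaip3, limit what can be called.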

Other observations

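Beyond the genes of the pathway, the kappaB consensus was looked for in the promoter windows of every tested gene with a window, a count added after the values were seen. Of 850 genes with a match in a window (members left out), 135 were lower (15.9%) and 9 were higher, with a median log2 ratio of -0.15. Of the 14166 genes with a window, 15.3% were lower, with a median of -0.14. The genes with a window include those with a match. Among detected genes, 23.7% of those with a match and 22.6% of those with a window were lower. A part of the motif in the changes was not tested. Of the core genes, the 3 that were lower each had a match, and so did Nfkb2, Nfkbie and Tnfaip3, which were not called.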
